A study of Homo sapiens with 8 samples.

Results

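PDLIM5 encodes a scaffold protein with PDZ and LIM domains that sits on actin filaments. ACTN4 encodes alpha-actinin 4, a non-muscle actinin that crosslinks those filaments and that PDZ-LIM proteins bind through their PDZ domain. All site pairs carrying either symbol were taken from 3 tables of poly(A) site usage, which gave 9 of 7615 pairs and 2 of 3656 genes. The values described here are the ones by which the genes were chosen, so they are given as a description and no test is drawn from them. Both genes moved toward a distal poly(A) site in double KD, and both shifts lay below the sum of the values in the single KDs.

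The cells were MDA-MB-231, an established triple-negative breast cancer line, made for CRISPR interference, in which a Cas9 that cannot cut carries a repressor domain to the promoter its guide RNA matches. Each of the 4 groups held 2 samples and 2 guide positions: double non-targeting control, HNRNPC guide with a non-targeting guide (HNRNPC KD), PABPC4 guide with a non-targeting guide (PABPC4 KD), and both targeting guides (double KD). Library preparation with QuantSeq REV primes on poly(A) with oligo(dT) and reads the 3′ end of each RNA. Each table set 1 KD group against the same control, and the table used for PABPC4 KD was assigned by elimination, because its name mixes abbreviations of both targets. Transcripts of HNRNPC and PABPC4 were not listed, so the depletion could not be checked here, and while the methods of the study describe its sequencing as done in biological duplicate, the labels do not name separate cultures.

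Most human genes carry several poly(A) sites, and the cleavage machinery, guided by AAUAAA-like signals, selects among them. A proximal site gives a short 3′ UTR and a distal site a long one, which changes the binding sites for regulatory proteins and microRNAs without changing the protein. HNRNPC is a nuclear RNA-binding protein that binds runs of U, and PABPC4 is a poly(A)-binding protein that moves between nucleus and cytoplasm.

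PDLIM5 (ENSG00000163110) lies on chromosome 4, 94451857 to 94668227 on the plus strand of hg38, and 4 of its poly(A) sites were listed. Sites 1, 2 and 3 are named by positions 95586055, 95586949 and 95588057, in a build that the tables do not name; on hg38 these positions lie outside the gene. Site 2 lies 894 nt and site 3 2002 nt after site 1. The most distal site is the end of the protein-coding transcript ENST00000437932.5, at 94668227 on hg38, called the annotated end here. Its last exon runs from 94663978 to 94668227 and holds a 3′ UTR of 4160 nt. ACTN4 (ENSG00000130402) lies on chromosome 19, 38647649 to 38731589 on the plus strand, and 3 of its sites were listed. Its sites 1 and 2 are named by positions 39220742 and 39221171 of the same unnamed build, 429 nt apart. Its annotated end is that of ENST00000252699.7, at 38731589 on hg38, with a last exon from 38729274 and a 3′ UTR of 2157 nt.

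The sequence at both annotated ends is shown first because these are the only listed ends of the pair that could be placed on hg38 by transcript name. In the lines that follow, capitals mark a poly(A) signal (AATAAA) upstream of the end or a run of at least 5 T after it.
PDLIM5, 30 nt upstream, chr4:94668192-94668221, hg38, plus strand: actcAATAAATAAAtgactgcattgttgta
PDLIM5, 30 nt after the end, chr4:94668228-94668257, hg38, plus strand: ctctccTTTTTgttgttgttggttggcgag
ACTN4, 30 nt upstream, chr19:38731554-38731583, hg38, plus strand: tctgtgcagcaaaaaatatagtcaatccca
ACTN4, 30 nt after the end, chr19:38731590-38731619, hg38, plus strand: gtcagtttccttacagtctacctcagaggc
AATAAA was present in the last 50 nt of the PDLIM5 end, as at 54.8% of the 4220 placed ends of all genes. In the last 50 nt of ACTN4 neither AATAAA nor ATTAAA was present, while either was present at 68.0% of ends. A run of 5 T in the 30 nt after the end was found at PDLIM5 and at 18.7% of ends, but not at ACTN4. Neither gene had a run of 5 T in the last 100 nt, which 32.7% of ends had.

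Over the whole 3′ UTR the pair differed more. PDLIM5 was 33.5% T on the RNA strand, with 16 runs of at least 5 T. The signal AATAAA occurred at 10 places in it and its variant ATTAAA at 6. ACTN4 was 21.8% T, with 5 runs of this length, and held 1 copy of each signal. These letters are a description of the annotated sequence and not of binding.

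The study designed PDLIM5 primers for 3′ RACE, a PCR that amplifies RNA ends, and a reporter library of sequences under HNRNPC CLIP peaks, that is, of RNA crosslinked to HNRNPC. They are shown because they place the regions that were examined in PDLIM5. Capitals mark runs of at least 3 T. The 30 nt of the CLIP peak were picked as its stretch with the most T, 20 of 30.
Proximal primer, chr4:94665408-94665428, hg38, plus strand: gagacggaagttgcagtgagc
Distal primer, chr4:94667984-94668003, hg38, plus strand: gatctggcttccatttgtcc
HNRNPC CLIP peak, first 30 of 124 nt, chr4:94665679-94665708, hg38, plus strand: TTTgTTTcgTTTTgTTTcttcttctgcatt
The distal primer matched hg38 exactly at 1 place, 224 nt upstream of the annotated end. The proximal primer matched 179 places, 1 of them in PDLIM5, 2799 nt upstream of the annotated end. The CLIP peak began 1612 nt after the stop codon, held 43.5% T against 33.5% in the whole 3′ UTR, and was the only one of 98 such peak sequences that lay in PDLIM5. None of the 98 lay in ACTN4. These 98 are the sequences placed in the reporter library and not all HNRNPC peaks, so they do not count the HNRNPC sites of either gene.

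**Figure D1:**
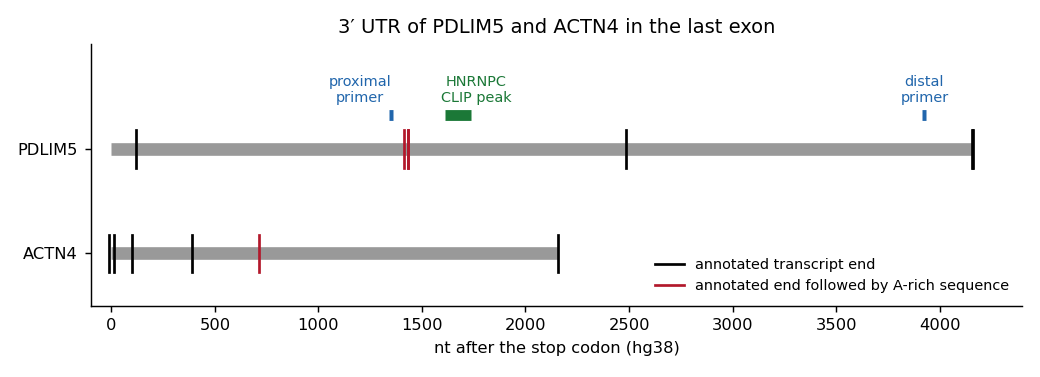
Map of the 3′ UTR in the last exon of PDLIM5 (top) and ACTN4 (bottom), in nt after the stop codon on hg38. Vertical lines are distinct annotated transcript ends (7 for PDLIM5, 6 for ACTN4), red where the next 20 nt are A-rich; the 2 primers and the HNRNPC CLIP peak stand above PDLIM5, whose 3′ UTR reaches 4160 nt against 2157 nt in ACTN4. Sites named by position in the unnamed build are not drawn.

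Gencode annotates 7 distinct ends in the last exon of PDLIM5. The next 20 nt after an end were called A-rich when at least 12 of them were A or 6 A followed one another. By this measure 3 of the 7 ends were A-rich, those 1414, 1433 and 1434 nt after the stop codon, just downstream of the proximal primer, and 20 of the 20 nt after the first of them were A. In ACTN4 1 of 6 ends was A-rich, 712 nt after the stop codon. Over all 4220 placed ends the share was 9.55%. No listed PDLIM5 site is named for one of these A-rich ends, and sites 1 to 3 were not placed on hg38, so whether site 1 lies there is not known here.

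The tables give logAPAR, which compares proximal over distal usage in a KD with the same quotient in control, on a natural log scale. Values below 0 mean relatively more use of the distal site. Its standard error (SE) was recovered from the p-value of each pair and covers counting error alone, because no value per sample was listed. At the pair of PDLIM5 site 1 and the annotated end, logAPAR was 0.29 ± 0.20 with HNRNPC KD, −0.45 ± 0.16 with PABPC4 KD and −1.40 ± 0.18 with double KD (SE). The 95% Wald intervals ran from −0.11 to 0.68, from −0.77 to −0.13 and from −1.75 to −1.06. The double KD interval did not overlap that of either single KD. In HNRNPC KD the value lay on the proximal side with an interval that included 0. The study reported a proximal-to-distal switch of PDLIM5 in HNRNPC-depleted cells, by 3′-end sequencing and by quantitative RT-PCR specific to each isoform. Whether its proximal site is site 1, and whether its samples are those used here, is not known here.

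ACTN4 had its smallest p-value at sites 1 and 2, with narrower errors. There logAPAR was 0.10 ± 0.08 with HNRNPC KD, −0.06 ± 0.08 with PABPC4 KD and −0.44 ± 0.08 with double KD (SE). Its intervals ran from −0.06 to 0.26, from −0.21 to 0.09 and from −0.60 to −0.28. Thus both single KD intervals included 0 and the double KD interval lay below both.

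The threshold was p 0.01, as in the volcano plots of the study. Past it were 0 of 6 pairs of the genes in HNRNPC KD, where 2.08% of all pairs passed. In PABPC4 KD 1 of 9 pairs passed, the PDLIM5 pair of site 1 and annotated end, beside 0.756% of all pairs. The adjusted p of that pair in PABPC4 KD was 0.951 in the regression of the authors. In double KD 2 of 9 pairs passed, beside 4.33% of all pairs: the same PDLIM5 pair, and ACTN4 sites 1 and 2. These shares are printed for scale, since the genes were chosen on these values.

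**Figure D2:**
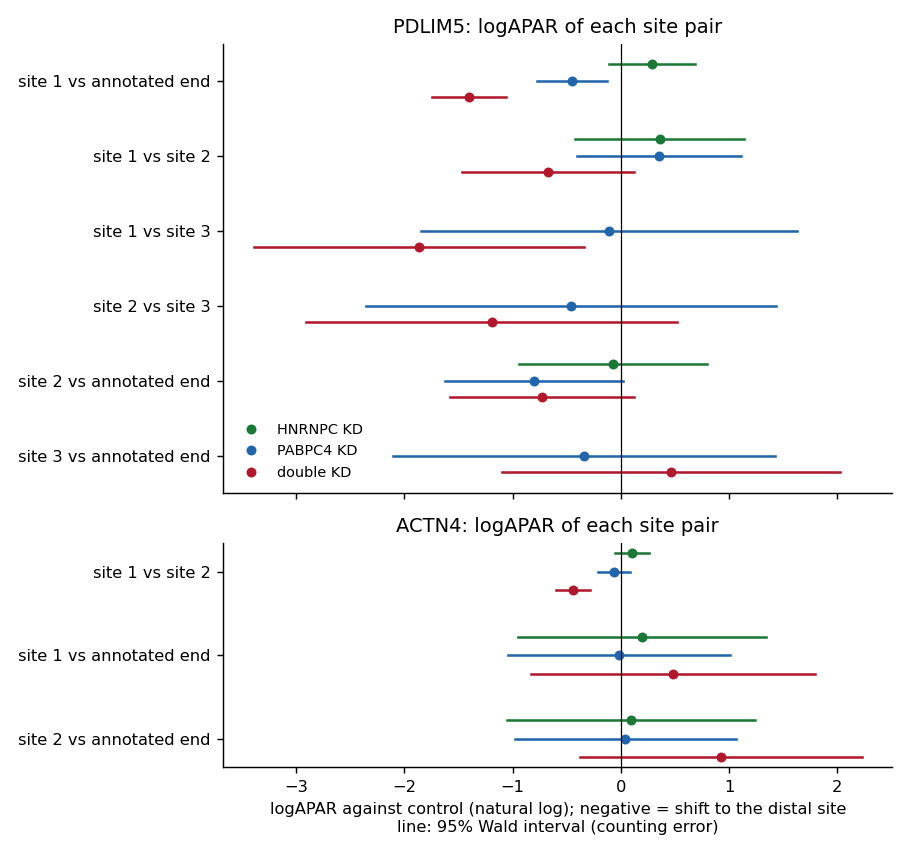
logAPAR (natural log, horizontal axis) of every PDLIM5 and ACTN4 site pair in HNRNPC KD, PABPC4 KD and double KD against control; points are listed values and lines 95% Wald intervals, which cover counting error. The PDLIM5 pair of site 1 and annotated end sits at −1.40 and the ACTN4 pair of sites 1 and 2 at −0.44 in double KD, while pairs with sparsely read sites have wide intervals; PDLIM5 site 3 was not listed in HNRNPC KD.

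The other PDLIM5 pairs were measured less precisely. Sites 1 and 2 had logAPAR values of 0.36 ± 0.40 with HNRNPC KD, 0.35 ± 0.39 with PABPC4 KD and −0.67 ± 0.41 with double KD (SE). Sites 1 and 3 gave −0.11 ± 0.89 with PABPC4 KD and −1.87 ± 0.78 with double KD. In double KD all 3 pairs that start at site 1 were therefore negative. Among pairs without site 1, site 2 and the annotated end had −0.07 ± 0.44, −0.80 ± 0.42 and −0.73 ± 0.43 in the order HNRNPC, PABPC4 and double KD, and the intervals of these 3 values each included 0. Sites 2 and 3 gave −0.46 ± 0.97 with PABPC4 KD and −1.19 ± 0.88 with double KD, and site 3 and the annotated end gave −0.34 ± 0.90 and 0.46 ± 0.80.

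In double KD the ACTN4 pairs with the annotated end had positive values, within wide errors. Site 1 and the annotated end had 0.19 ± 0.59, −0.02 ± 0.52 and 0.48 ± 0.67 in HNRNPC, PABPC4 and double KD (SE). Site 2 and the annotated end had 0.09 ± 0.58, 0.04 ± 0.52 and 0.93 ± 0.66. Each of these 6 intervals included 0, so at this depth no change in use of the ACTN4 annotated end was detectable.

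To see which site moved, normalised reads per site were reconstructed from the errors of the tables, both samples of a group summed. The reconstruction takes each Wald variance as the sum of the inverse reads at both sites in both groups, and intervals on its values cover counting error only. It needs logAPAR to be a natural log: read as log2, the changes from control come out much lower at every site, with a worse fit. At PDLIM5 site 1 it gave 1444 reads in control, 1153 with HNRNPC KD, 1250 with PABPC4 KD and 396 with double KD. The annotated end had 68.2, 40.9, 92.7 and 76.0 reads in the same order. Site 2 had 17.7, 9.87, 10.8 and 9.54 reads, and site 3 had 2.59 in control, 2.49 with PABPC4 KD and 4.59 with double KD. The double KD shift at PDLIM5 was therefore a fall at site 1, to 0.274 of control (95% interval 0.245 to 0.306), with the annotated end at 1.11 of control (0.803 to 1.54).

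The share of PDLIM5 reads at site 1 was 94.2% in control, 95.8% with HNRNPC KD, 92.2% with PABPC4 KD and 81.4% with double KD (95% intervals on the logit scale 92.9 to 95.3%, 94.5 to 96.8%, 90.6 to 93.5% and 77.7 to 84.7%). The share of the annotated end was 4.45%, 3.40%, 6.83% and 15.6%. Site 1 thus remained the most read PDLIM5 site in all 4 groups. As a ratio, there were 21.2 site 1 reads per annotated end read in control, 28.2 with HNRNPC KD, 13.5 with PABPC4 KD and 5.21 with double KD.

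In double KD ACTN4 also had fewer reads at its proximal site, but the fall was smaller than in PDLIM5. ACTN4 site 1 had 440.3 reads in control, 335.8 with HNRNPC KD, 407.0 with PABPC4 KD and 300.0 with double KD. Site 2 had 2023, 1396, 1989 and 2148 reads, and the annotated end 7.66, 4.81, 7.22 and 3.22 reads. In HNRNPC KD sites 1 and 2 fell together, to 0.763 (0.662 to 0.879) and 0.690 (0.645 to 0.739) of control. In double KD site 1 was at 0.681 of control (0.588 to 0.789), while site 2 was at 1.06 (0.999 to 1.13). The share of ACTN4 reads at site 1 was 17.8% in control, 19.3% with HNRNPC KD, 16.9% with PABPC4 KD and 12.2% with double KD. Site 2 held 81.9%, 80.4%, 82.8% and 87.6%, so the distal of these sites was the main one in every group, the opposite layout to PDLIM5.

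**Figure D3:**
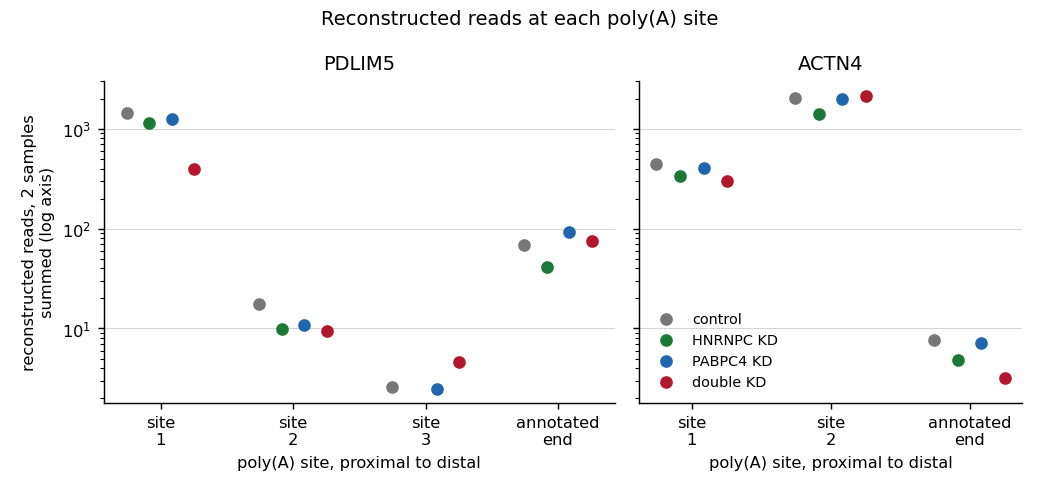
Reconstructed reads (log axis, 2 samples of a group summed) at each listed poly(A) site of PDLIM5 (left) and ACTN4 (right) in control, HNRNPC KD, PABPC4 KD and double KD. PDLIM5 site 1 lies at 396 reads in double KD against 1153 to 1444 in the other groups, whereas ACTN4 site 2 is lowest in HNRNPC KD, at 1396.

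Summed over sites, PDLIM5 had 1532 reads in control, 1204 with HNRNPC KD, 1356 with PABPC4 KD and 486 with double KD, that is 0.786, 0.885 and 0.317 of control. ACTN4 had 2471, 1737, 2404 and 2451 reads, that is 0.703, 0.973 and 0.992 of control. Among the 225 genes with at least 100 reconstructed reads in every group, the median was 0.932 with HNRNPC KD, 1.01 with PABPC4 KD and 1.05 with double KD. In double KD 1 of these genes lay below PDLIM5 and 92 below ACTN4. In HNRNPC KD 33 lay below PDLIM5 and 19 below ACTN4. In these bulk libraries fewer cells making an RNA and less of that RNA per cell cannot be told apart.

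**Figure D4:**
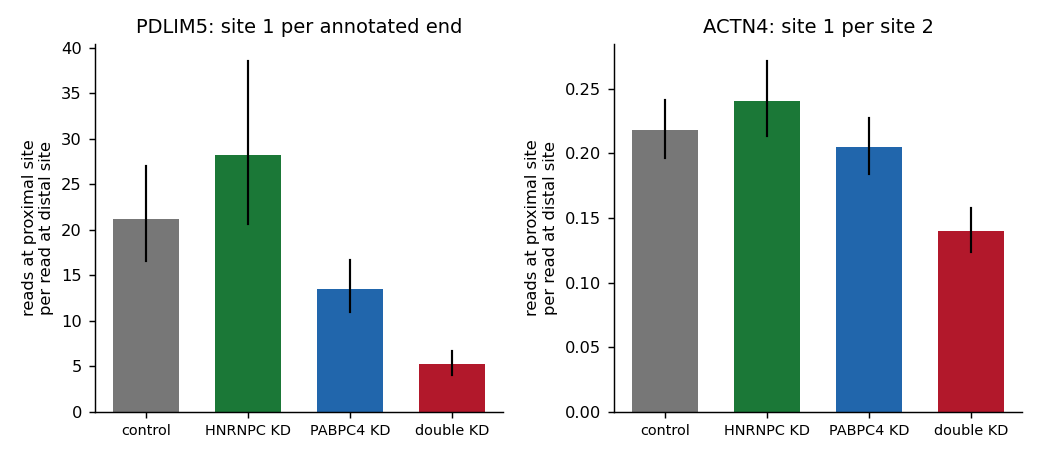
Reads at the proximal site per read at the distal site for the PDLIM5 pair of site 1 and annotated end (left) and the ACTN4 pair of sites 1 and 2 (right), by group; bars are reconstructed values and black lines 95% intervals from counting error. PDLIM5 falls from 21.2 in control to 5.21 in double KD and ACTN4 from 0.218 to 0.140, with the HNRNPC KD bar the highest for both genes.

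The study set double KD against PABPC4 KD to ask whether both proteins act together. Across its HNRNPC targets as a set it saw no significant switch to distal sites there. From this it concluded that the role of HNRNPC in site choice depends on PABPC4. The values here are of single pairs and not of that set. The difference in logAPAR between double KD and PABPC4 KD, in which the shared control cancels, was −0.95 ± 0.24 at PDLIM5 site 1 and annotated end. At ACTN4 sites 1 and 2 it was −0.38 ± 0.11. Against HNRNPC KD the differences were −1.69 ± 0.27 for PDLIM5 and −0.54 ± 0.11 for ACTN4. These errors add the variances of both tables and are an upper bound. The errors from reconstructed reads were 0.17 and 0.20 for PDLIM5 and 0.08 and 0.09 for ACTN4. Past p 0.01 were 2 of 6 pairs of the genes in each difference, these same ones, beside 1.9% of all 4692 shared pairs against PABPC4 KD and 1.56% against HNRNPC KD. With adjustment over all shared pairs the ACTN4 difference from PABPC4 KD no longer passed 0.05 with the upper-bound error (adjusted p of 0.0795).

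If the KDs acted independently on the log scale, logAPAR in double KD would equal the sum of the single KD values. For PDLIM5 site 1 and annotated end that sum was −0.16 and the measured value −1.40, a departure of −1.24 ± 0.31, or ± 0.26 with errors from reconstructed reads. For ACTN4 sites 1 and 2 the sum was 0.04 and the measured value −0.44, a departure of −0.48 ± 0.14, or ± 0.11. Both lay on the distal side. They were the 2 of 6 pairs of the genes past p 0.01, beside 1.04% of all shared pairs. With upper-bound errors, the adjusted Wald p-values over all shared pairs were 0.0746 for PDLIM5 and 0.205 for ACTN4, both above 0.05. With errors from reconstructed reads they were 0.00240 and 0.0112, adjusted over the smaller set of shared pairs in genes with solved reads. The counts and p-values of these departures, and of the differences above, are a description, since the genes were chosen on these values. The other departures were −1.39 ± 0.69 for PDLIM5 sites 1 and 2, 0.15 ± 0.75 for PDLIM5 site 2 and annotated end, 0.31 ± 1.03 for ACTN4 site 1 and annotated end, and 0.79 ± 1.03 for ACTN4 site 2 and annotated end.

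Counted in reads at each site, the departures of the genes lay at different ends of the pair. At PDLIM5 site 1 the product of the single KD changes was 998 reads and double KD had 396, a natural log departure of −0.93 ± 0.07 (SE), while at the annotated end the product was 55.5 and double KD had 76.0, a departure of 0.31 ± 0.25. At ACTN4 site 1 the product was 310.4 against 300.0 reads, a departure of −0.03 ± 0.11. At ACTN4 site 2 the product was 1373 against 2148, a departure of 0.45 ± 0.05. So in read number the PDLIM5 departure lay at the proximal site and the ACTN4 departure at the distal site. At ACTN4 site 2 the fall seen in HNRNPC KD was not seen in double KD. These values include any change of the whole gene. ACTN4 reads over all sites were at 0.703, 0.973 and 0.992 of control in HNRNPC, PABPC4 and double KD. Those of PDLIM5 were at 0.786, 0.885 and 0.317. The departures in reads therefore do not separate site choice from gene level.

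Over the 345 sites with at least 50 reconstructed reads in every group, the median departure was 0.08, with 5% of sites below −0.76 and 5% above 0.49. At 5 other sites of the 345 the departure was lower than at PDLIM5 site 1, and at 318 it was lower than at ACTN4 site 2. The spread of the read change from control was also wider in double KD, where the 5% and 95% points lay at −1.01 and 0.58 on the natural log scale, than in HNRNPC KD, where they lay at −0.51 and 0.38, or in PABPC4 KD, where they lay at −0.28 and 0.25.

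**Figure D5:**
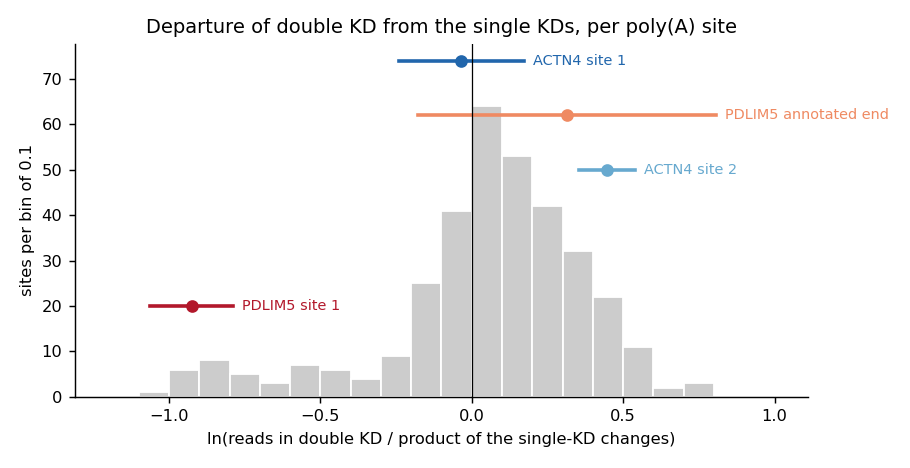
Natural log of the reads in double KD over the product of the single KD changes; grey bars count the 345 sites with at least 50 reads in every group in bins of 0.1, and coloured points with lines give values and 95% intervals of PDLIM5 and ACTN4 sites, at heights without meaning. The bars form a main hump above 0 and a small one on the far left, where PDLIM5 site 1 lies at −0.93, while ACTN4 site 2 lies at 0.45.

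The profile of PDLIM5 site 1 recurred at other sites. Of the 345 sites, 10 besides PDLIM5 had read changes within 0.2 of it on the natural log scale in all 3 KDs, in 10 other genes. Together with PDLIM5 they ranged from 0.790 to 0.972 of control with HNRNPC KD, from 0.803 to 0.908 with PABPC4 KD and from 0.261 to 0.335 with double KD. One was an end of NMNAT1, a nuclear NAD-synthesis enzyme, with 789 reads in control, 667 with HNRNPC KD, 697 with PABPC4 KD and 223 with double KD. This window, and NMNAT1 as its example, were chosen after the values were seen. Of the 10 sites, 2 could be placed on hg38, that of NMNAT1 among them.

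Because the PDLIM5 proximal primer has many exact matches in the genome, the placed ends were also sorted by its last 12 bases, GTTGCAGTGAGC, searched on the RNA strand in the last 100 nt. This sorting was chosen after the values were seen. The 12 bases stood before 72 of 4220 placed ends, 1.71%. Of the placed ends with at least 50 reads in every group, 7 had them, and in double KD their median was 0.393 of control (quartiles 0.351 and 0.513), with 6 of the 7 below −0.5 on the natural log scale. The 158 ends without them had a median of 1.09 (0.922 and 1.33), with 8 below −0.5. In HNRNPC KD the medians were 0.876 and 0.951, and in PABPC4 KD 0.884 and 1.04. Ends with A-rich sequence after them numbered 18, with a median of 0.879 in double KD and 5 below −0.5, beside 1.09 and 9 of 147 for the rest. The groups overlap: 5 ends had both the 12 bases and A-rich sequence, and 4 of these were below −0.5 in double KD. PDLIM5 site 1 stood at 0.799, 0.866 and 0.274 of control in these 3 KDs. Of the 2 placed ends with a profile like that of PDLIM5 site 1, 0 had the 12 bases and 0 had A-rich sequence after them. The part of repeated or A-rich sequence in the fall of site 1 was not tested, since the site was not placed on hg38.

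To find genes with the most similar pattern, the distance over the 3 logAPAR values was taken to 1 pair of each of 335 genes with an SE of at most 0.3 in every table. Nearest to PDLIM5 was DPP9, a cytosolic dipeptidyl peptidase, at 0.01 with HNRNPC KD, −0.21 with PABPC4 KD and −1.56 with double KD and a distance of 0.405. Then came KBTBD6, a substrate adaptor of a cullin ubiquitin ligase (distance 0.516), IVD, an enzyme of leucine breakdown (0.562), PRKAR2A, a regulatory subunit of protein kinase A (0.579), and ZFAND3, a zinc finger protein (0.586). All 5 lay between −1.56 and −0.95 in double KD. PDLIM5 and ACTN4 were 1.05 apart, so ACTN4 was farther from PDLIM5 than any of these.

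Nearest to ACTN4 were LSG1, a GTPase of ribosome assembly (distance 0.0992), MYADM, a membrane protein (0.119), UGGT1, a folding sensor of the endoplasmic reticulum (0.158), SLC2A3, a glucose transporter (0.175), and RC3H2, an RNA-binding protein that promotes mRNA decay (0.176). LSG1 had logAPAR values of 0.01, −0.06 and −0.41 in HNRNPC, PABPC4 and double KD with errors of about 0.23 to 0.24, which are larger than those of ACTN4. The order of such near neighbours is not resolved by these errors.

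Other genes of the actin and adhesion machinery were read from lists of 54 genes: 6 PDZ-LIM proteins, 3 actinins, 36 partners at actin filaments and adhesions, and 9 signalling partners. In all, 20 of the 54 were listed in any table. Past p 0.01 were 0 of 32 pairs with HNRNPC KD, 0 of 36 with PABPC4 KD and 1 of 37 (2.7%) with double KD, shares to be read beside the 2.08%, 0.756% and 4.33% of all pairs. Median logAPAR over the pairs of the lists was 0.22, 0.18 and 0.23, against 0.01 in each table over all pairs. It was 0.50, 0.32 and 0.47 for the actin and adhesion partners and −0.06, 0.17 and 0.23 for the signalling partners. Several of these pairs share a gene, and the median SE of all pairs was 0.81, 0.81 and 0.82. A shift of the lists was not tested.

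PDLIM2 was the only other PDZ-LIM gene listed, by 1 pair, with 0.15, −0.07 and −0.71 in the 3 tables, none past p 0.01. Of the other actinins, ACTN1 was listed only in HNRNPC KD, at 0.63, also not past p 0.01. ACTN2 and ACTN3, the muscle actinins, were not listed.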

How the data were processed

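RNA 3′ ends of 8 samples were quantified by the authors with Salmon 0.14.1, with UMI-tools and hg38 also named in the submitters' processing notes, against distinct Gencode ends, and modelled with APAlog, a multinomial logistic regression over the sites of a gene. The deposited values used here are logAPAR, on a natural log scale, with the raw p-value and corrected q-value that the authors gave each pair. These columns are the authors' own comparisons and the only measurement in the tables; values per sample, and so depth per library and replicate spread, are not in the tables and no model was refitted.

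Computed here with Python 3.11.15, numpy 2.4.6, scipy 1.17.1 and pandas 2.3.3 were the Wald SE (absolute logAPAR over the normal quantile of its p-value), differences and sums between tables over all 4692 shared pairs with Benjamini-Hochberg adjustment, and reads per site by least squares at genes with at least 3 shared sites (681 tried, 638 solved with 2069 sites). P-values from reconstructed-read errors were adjusted over the shared pairs of the solved genes only. The steps were run on simulated data made with the same variance formula and without replicate spread. Such data cannot show how far that formula holds in these libraries. The recomputed Benjamini-Hochberg values matched the deposited q-values. Moving the inputs by a relative 1e-05 moved the reads of PDLIM5 by at most 0.0725% and of ACTN4 by at most 0.232%. Intervals cover counting error only; reads without molecular identifiers are not independent molecules.

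Position-named sites were not converted between builds. Transcript-named ends used Gencode release 44 (4220 of 4787 names with the same version). Primers and peak sequences came from the study's supplementary lists and were matched to hg38. Genes named beside PDLIM5 and ACTN4 were the 5 nearest to each by distance over the 3 logAPAR values (SE of at most 0.3) and each gene of the partner lists past p 0.01. The single gene that met the last condition is not reported here. NMNAT1 was named outside this rule. PDLIM2 and the actinins were named as the listed members of their families. The genes and lists were chosen with earlier results of these data known. Alternatives were calls at p 0.001 or after adjustment at 0.05, the outermost sites of a gene only, shared pairs only, other errors, logAPAR read as log2, other U-run definitions and an SE limit of 0.5.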

Additional observations from a re-analysis of the deposited data

Results flagged for a closer look

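The change with HNRNPC KD differed with and without PABPC4 KD at a pair of each gene. For PDLIM5 site 1 and annotated end the departure from additivity was −1.24 ± 0.31 (SE, natural log), and for ACTN4 sites 1 and 2 it was −0.48 ± 0.14. Both genes were chosen with these values known, so neither is independent evidence of an interaction. At 10 other sites the read profile was the same within 0.2. Among placed ends with at least 50 reads in every group, 7 held the last 12 bases of the PDLIM5 proximal primer. Their median was 0.393 of control in double KD. This sorting was chosen after the values were seen, and PDLIM5 site 1 was not placed on hg38. The primer matched hg38 at 179 places, but it belongs to a PCR and not to these libraries, which were primed with oligo(dT). Of the 10 sites 2 were placed on hg38, and of these 0 had the 12 bases and 0 had A-rich sequence after the end. The part of such sequence in the PDLIM5 value was not tested.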

How the results depend on the processing

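Of 53 alternative values, 30 stayed on the same side of 0 and of the threshold, or within their error. The count of pairs past the threshold in PABPC4 KD went from 1 to 0 at an adjusted p of 0.05 and to 0 at p 0.001, and the count in double KD went from 2 to 1 when only the outermost sites of each gene were compared. With that choice ACTN4 in double KD turned to 0.48 and its departure to 0.31, because the pair then ends at the sparsely read annotated end (3.22 reads in double KD). The departures were −1.24 for PDLIM5 and −0.48 for ACTN4. With upper-bound errors, over all 4692 shared pairs, their adjusted p-values were 0.0746 and 0.205 (Wald tests of the combined tables). Errors from reconstructed reads gave 0.00240 and 0.0112, adjusted over the shared pairs of genes with solved reads only. The ACTN4 difference of −0.38 from PABPC4 KD had an adjusted p of 0.0795 (Wald test of the combined tables). That value used the upper-bound error and all 4692 shared pairs, and was added after seeing the data. Both genes were chosen on these values, so the p-values are a description. Reading logAPAR as log2 put the share of PDLIM5 site 1 at 93.6% for PABPC4 KD and 88.1% for double KD, and that of ACTN4 site 1 at 21.2%, 22.4%, 20.5% and 16.6% in control, HNRNPC, PABPC4 and double KD. It moved the reads over control more: at PDLIM5 site 1 to 0.354 in HNRNPC KD and 0.169 in double KD, at its annotated end to 0.290 and 0.446, at ACTN4 site 1 to 0.137 and 0.125, and at ACTN4 site 2 to 0.128 and 0.170. The natural log left the smaller misfit, 2.85e-05 against 0.00429 for PDLIM5 and 2.26e-06 against 0.000862 for ACTN4. With an SE limit of 0.5, 1 of the 5 nearest genes to PDLIM5 remained among the nearest 5, DPP9. No paired analysis was possible because no values per sample are listed, and for the same reason no replicate could be left out. Limits are a depth that is unknown per library, errors without replicate spread, and PDLIM5 sites 2 and 3 and the ACTN4 annotated end resting on under 20 reads a group.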
